A study of Rattus norvegicus with 12 samples.

Results

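The nuclear genes of the mitochondrial respiratory chain were followed across 6 rat cell lines or cultures. A gene was taken as a member when the platform's probe-to-gene table gave its probe set 1 symbol only and that symbol began with Nduf, Sdh followed by a to d, Uqcr, Cyc1, Cox4 to Cox8 or Atp5. This held for 91 of the 14218 genes with a symbol of their own, and each gene was read from its probe set with the highest mean over the 12 arrays. Of these, 86 reached a mean of 5 (log2 signal) in at least 1 labelled cell type and were tested beside all 10510 genes that did so. The 86 were 34 genes of complex I, 4 of complex II, 8 of complex III, 10 of complex IV, 15 of complex V, 10 assembly factors, 2 regulators (Cox7a2l and Atp5if1), 1 pseudogene (Cox6c-ps1) and 2 tissue-specific isoforms. The 5 others, Ndufa4l2, Cox7a1, Cox4i2, Cox6a2 and Cox8b, were all tissue-specific or condition-specific isoforms and stayed under that level. Cox7b2 passed it only through the labelled types that hold the lines in which it was high. Cox6c-ps1 also passed it only through the labelled types in which it was higher.

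The respiratory chain passes electrons from NADH through complex I, and from succinate through complex II, to ubiquinone, then through complex III and cytochrome c to complex IV, which reduces oxygen. Complexes I, III and IV pump protons across the inner membrane, and complex V uses the gradient to make ATP. Most subunits are encoded in the nucleus and a few in mitochondrial DNA. Pluripotent stem cells in culture are known for a strong reliance on glycolysis, while fibroblasts and neural cells differ from them in mitochondrial content and in the subunit isoforms they use.

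The arrays fell into 3 labelled cell types of 4 arrays each. The iPS arrays came from lines A1 and A2 of induced pluripotent stem cells of the FHH strain, kept on feeder fibroblasts of mouse origin. The ES arrays came from DAC2 and DAC8, lines of embryonic stem cells with no strain in the labels, and the EF arrays from FHH fibroblast cultures REF1 and REF2, made from e14.5 embryos. Each line had 2 arrays. The medium was 2i for iPS and ES cells, harvested 5 days after passage, and MEF medium for EF cells, harvested after 6 days. The labels record SSEA-1, Oct4, Nanog and Sox2 in iPS and ES cells, and the stated purpose was to ask how closely iPS cells resembled ES cells. The labels do not say that the arrays of 1 line were separate cultures, so p-values between lines reflect the spread among these arrays alone, which may be technical. In bulk samples, fewer cells of a type and less RNA per cell cannot be told apart.

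Defining markers went against the labels of 4 of the 6 lines, A1, A2, DAC8 and REF2, which bears on every comparison below. The median level of 7 pluripotency markers was 11.19 in DAC2 and 11.12 in REF2, and between 3.86 and 4.30 in A1, A2, DAC8 and REF1. The median of 10 fibroblast markers was 12.83 in DAC8 and 12.97 in REF1, and between 4.09 and 4.53 elsewhere. All 10 neural markers reached 5 in A1 and in A2, with medians of 10.69 and 10.65, against 4.64 to 5.70 in the other lines, while 2 of the 7 pluripotency markers reached 5 in A1 and in A2. The arrays labelled A1 and A2 (iPS) therefore carried neural markers and few pluripotency markers. The arrays labelled DAC8 (ES) carried fibroblast markers and the arrays labelled REF2 (EF) pluripotency markers, and all arrays kept their labels. Array medians lay between 5.28 and 5.41. The difference between 3' and 5' actin probe sets, a sign of RNA quality, was 0.42 to 0.52 on DAC8 and REF1 arrays and 0.84 to 1.05 on the rest, and its part in the results below was not tested.

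Respiratory chain genes varied less between lines than most genes. The range of the 6 line means was 0.63 (log2, median over the 86 members) against 1.28 over all 10510 genes, and 14 members (16.3%) spanned more than 1 log2 unit against 63.0% of all genes. The median level of the members was 10.57 to 11.10 on the 12 arrays, and they were not compared with genes of like level. The part of level in their smaller range was not tested. Cox4i1, the widespread form of the complex IV subunit that binds ATP, had the smallest range of all genes tested. Its line means were 11.56 ± 0.02 (log2 level, mean ± SD, n = 2) for A1, 11.55 ± 0.01 for A2, 11.55 ± 0.07 for DAC2, 11.57 ± 0.01 for DAC8, 11.58 ± 0.04 for REF1 and 11.58 ± 0.02 for REF2, a range of 0.03. By group, the median range was 0.57 for complex I, 0.91 for complex II, 0.59 for complex III, 0.55 for complex IV, 0.52 for complex V and 0.90 for the assembly factors. Complex II and the assembly factors thus varied most among the subunit and assembly groups.

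**Figure D1:**
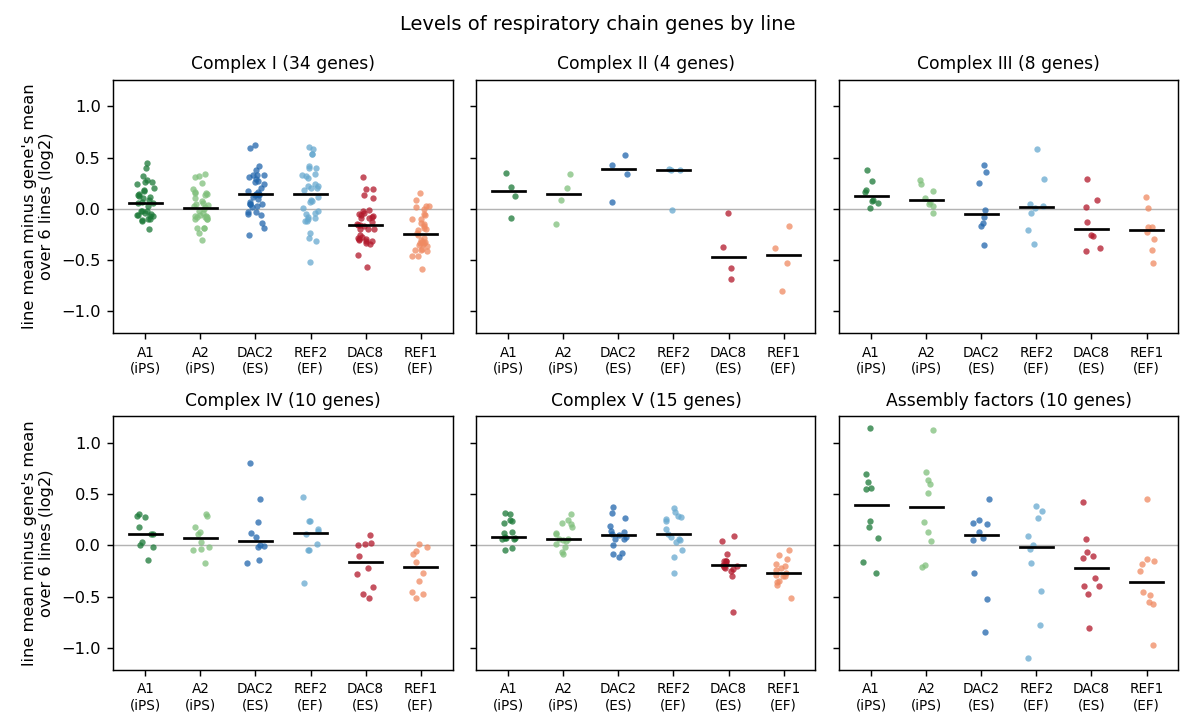
Each point is 1 gene, and the vertical axis gives its line mean minus its own mean over the 6 lines (log2), for the 5 complexes and the assembly factors, with black bars at the median of each line and the labelled cell type in brackets. Complex II sits highest in DAC2 and REF2 (medians 0.39 and 0.37) and lowest in DAC8 and REF1 (medians -0.48 and -0.45), while assembly factors are highest in A1 and A2 (medians 0.40 and 0.37).

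Between the labelled cell types, 1 member passed the test. Sdhaf4, which encodes an assembly factor that helps flavin-loaded Sdha mature in complex II, was higher in iPS than in both other types. It measured 9.51 and 9.53 on the A1 arrays, 9.51 and 9.49 on A2, 7.91 and 7.80 on DAC2, 7.99 and 7.95 on DAC8, 7.79 and 7.81 on REF1, and 7.64 and 7.56 on REF2. All 4 iPS arrays lay above all 8 others. The difference was 1.60 ± 0.27 (log2, SE) from ES (limma, adjusted p = 0.00587) and 1.81 ± 0.27 from EF (adjusted p = 0.00271), about 3.03-fold and 3.51-fold. Because ES and EF each joined a line with pluripotency markers and a line with fibroblast markers, other members were compared there against a wide spread. The call was thus 1 of 86 members (1.16%) higher in iPS than ES, where 3.09% of all genes were called higher, and 0 lower, where 1.75% were. Against EF it was 1 higher, where 3.24% of all genes were, and 0 lower, where 2.10% were. ES against EF gave 0 members and 0% of all genes in either direction with limma, and 0 members at an unadjusted p under 0.05. Without the arrays labelled DAC8 and REF2, 58, 64 and 73 members passed at the same threshold for iPS against ES, iPS against EF and ES against EF, where 81.7%, 81.8% and 84.4% of all genes did. ES was then DAC2 alone and EF was REF1 alone, so the spread between lines within ES or EF could not be estimated. These counts are therefore not a comparison of cell types. The lines were therefore compared singly, and a member was called between lines at adjusted p under 0.05 with a difference of at least 1.5-fold (0.585 on the log2 scale).

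DAC2, with pluripotency markers, was set against REF1, with fibroblast markers, both as labelled, and few chain genes were lower in DAC2. Of the 86 members, 29 rose (33.7%, against 33.6% of all genes called higher) and 1 fell (1.16%, against 27.1%), so the share that rose was near the background and the share that fell was below it. The median difference was 0.44 over the members and 0.19 over all genes, and 76 of 86 were above 0. Among the 71 subunits of complexes I to V, 20 (28.2%) were higher, a share below that of all genes, and 0 lower. Of the 10149 autosomal genes tested, 5834 were above 0 in this contrast. Members were also mostly above 0 in pairs of like marker profile, 70 of 86 in DAC8 against REF1 and 71 in A1 against A2. REF2 against DAC8 uses no array of DAC2 or REF1. There 22 members rose (25.6%, against 32.4% of all genes) and 3 fell (3.49%, against 26.4%), with a median difference of 0.28 against 0.15 over all genes. The labels make that an EF minus ES difference and the markers make it a pluripotent minus fibroblast profile. Between these contrasts, 21 members were higher in both, 1 was lower in both and 0 changed in opposite directions, against 2884, 2421 and 39 of all genes. The Pearson correlation of the 2 differences was 0.89 across 86 genes and 0.95 across 10510, a description only, since genes are not independent replicates. The 86 include the isoforms Cox7b2 and Cox6b2, whose differences were far larger than the rest. They weigh heavily on the first value, and no correlation was computed without them.

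**Figure D2:**
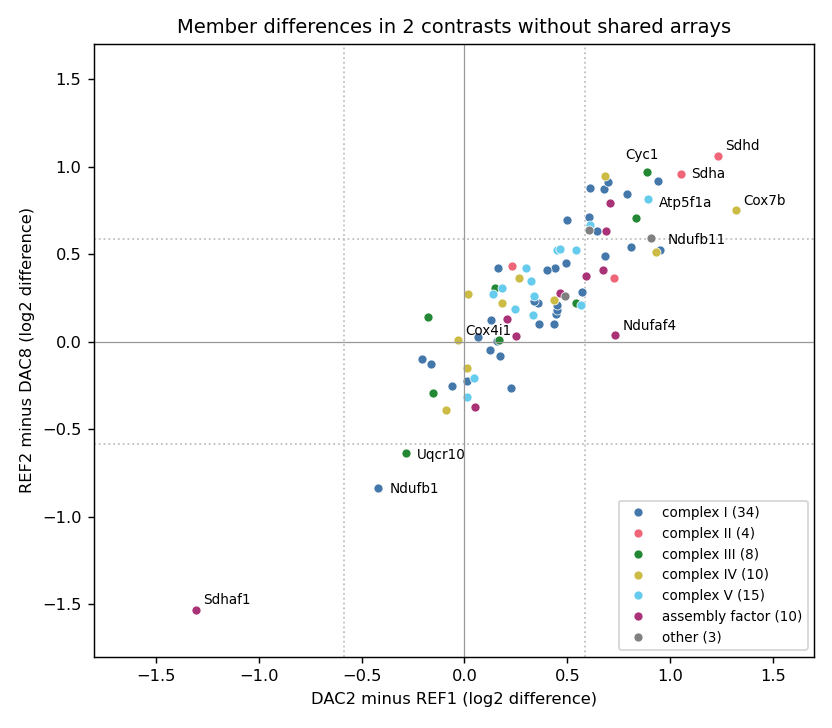
Each point is 1 of 84 members (the tissue-specific isoforms Cox7b2 and Cox6b2 lie off the axes), with the DAC2 minus REF1 difference on the horizontal axis and the REF2 minus DAC8 difference on the vertical axis (both log2), coloured by complex, and dotted lines at 1.5-fold. Most points lie in the upper right, led by Sdhd at 1.23 and 1.06, and Sdhaf1 stands alone at the lower left at -1.30 and -1.53.

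Complex I, the entry point for NADH, held called genes of several roles. Of its 34 genes, 10 rose and 0 fell in DAC2 against REF1 (median difference 0.44), and 8 rose and 1 fell in REF2 against DAC8 (median 0.22). Over all genes 33.6% and 32.4% were called higher in these contrasts and 27.1% and 26.4% lower, so the share of complex I called higher was below that of all genes in both. Ndufs7, a core subunit that carries the last iron-sulfur cluster before ubiquinone, measured 10.72 and 10.77 on the DAC2 arrays and 10.79 and 10.68 on REF2, against 9.81 and 9.83 on DAC8, 9.80 and 9.81 on REF1, 9.98 and 9.94 on A1 and 9.80 and 9.90 on A2. The DAC2 and REF2 arrays stood apart from the other 8, which lay between 9.80 and 9.98. It was higher by 0.94 ± 0.06 in DAC2 than REF1 (adjusted p = 2.46e-07) and by 0.92 ± 0.06 in REF2 than DAC8 (adjusted p = 3.08e-07).

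Ndufs1, the largest core subunit of the electron-input arm, had another order. It measured 10.47 and 10.39 on A1, 10.32 and 10.26 on A2, 10.11 and 10.03 on DAC2, 10.37 and 10.20 on REF2, 9.42 and 9.41 on DAC8 and 9.37 and 9.41 on REF1. Only the DAC8 and REF1 arrays were low, so iPS exceeded REF1 by 0.97 ± 0.06 (adjusted p = 1.77e-07) and DAC2 did by 0.68 ± 0.07 (adjusted p = 6.92e-06). Ndufv1, which binds NADH and flavin, was higher by 0.64 ± 0.06 in DAC2 than REF1 and by 0.63 ± 0.06 in REF2 than DAC8. Ndufs4, an accessory subunit needed for a stable complex, was higher by 0.61 ± 0.07 and 0.88 ± 0.07 in these contrasts, and Ndufb3, an accessory membrane subunit, by 0.79 ± 0.06 and 0.84 ± 0.06. The Ndufs4 call in DAC2 against REF1 was lost without REF1 replicate 2 (0.53) or DAC2 replicate 2 (0.58), and with a further quantile normalization (0.57). Ndufv3 was higher by 0.70 ± 0.07 and 0.91 ± 0.07, but its other probe set differed less, at 7.03 in DAC2 against 6.93 in REF1, and the mean of its probe sets was not called in either contrast (0.40 and 0.56). Ndufb1, a small accessory subunit, ran the other way. Its means were 9.94 ± 0.09 for DAC2, 9.68 ± 0.06 for REF2, 10.51 ± 0.00 for DAC8 and 10.36 ± 0.00 for REF1. It fell by 0.83 ± 0.07 in REF2 against DAC8 (adjusted p = 1.77e-06), while the DAC2 minus REF1 difference of -0.42 ± 0.07 was under 1.5-fold.

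Complex II, succinate dehydrogenase, which also belongs to the citric acid cycle, had the largest median differences of the 5 complexes. The median difference of its 4 subunits was 0.89 in DAC2 against REF1, 0.69 in REF2 against DAC8 and 0.61 in iPS against REF1, and 3, 2 and 3 of the 4 rose. Over all genes the medians were 0.19, 0.15 and 0.15, and 33.6%, 32.4% and 30.3% were called higher. Sdhd, a membrane anchor of the complex, measured 11.11 and 11.17 on A1, 11.12 and 11.14 on A2, 11.20 and 11.24 on DAC2, 11.15 and 11.18 on REF2, 10.10 and 10.11 on DAC8 and 10.00 and 9.99 on REF1. The 8 arrays of the first 4 lines named lay about 1 log2 unit above the 4 arrays of the other 2, with no overlap. The difference was 1.23 ± 0.05 in DAC2 against REF1 (2.35-fold, adjusted p = 7.78e-09), 1.06 ± 0.05 in REF2 against DAC8 (2.09-fold, adjusted p = 2.31e-08) and 1.14 ± 0.04 in iPS against REF1 (2.21-fold, adjusted p = 5.04e-09). A further probe set of Sdhd gave the same arrangement, from 10.74 to 11.01 in A1, A2, DAC2 and REF2 and from 9.74 to 9.79 in DAC8 and REF1.

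Sdha, the flavin-bearing catalytic subunit, measured 10.82 and 10.80 on DAC2, 10.74 and 10.59 on REF2, 10.39 and 10.45 on A1, 10.41 and 10.34 on A2, 9.75 and 9.66 on DAC8 and 9.78 and 9.74 on REF1. Here the iPS arrays lay between the other lines. The difference was 1.05 ± 0.06 in DAC2 against REF1, 0.96 ± 0.06 in REF2 against DAC8 and 0.63 ± 0.06 in iPS against REF1. Sdhb, the iron-sulfur subunit, was higher by 0.72 ± 0.06 in DAC2 than REF1 and by 0.59 ± 0.05 in iPS than REF1, the latter close to the size limit and lost without A1 replicate 1 (0.58), A2 replicate 2 (0.58) or REF1 replicate 2 (0.51) and with equal array medians (0.55). Its difference of 0.36 ± 0.06 in REF2 against DAC8 was under 1.5-fold. Sdhc, the other membrane anchor, was not called in any of these 3 contrasts, with differences of 0.23, 0.43 and 0.05.

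Complex III hands electrons from ubiquinol to cytochrome c. Its median difference was 0.16 in DAC2 against REF1 and 0.18 in REF2 against DAC8, with 2 of 8 genes higher in each and Uqcr10 lower in REF2. Over all genes the medians were 0.19 and 0.15, with 33.6% and 32.4% called higher and 27.1% and 26.4% lower. The share of complex III called higher was thus below that of all genes in both. Cyc1, cytochrome c1, measured 11.46 and 11.45 on DAC2 and 11.69 and 11.68 on REF2, 11.10 and 11.11 on A1, 11.04 and 11.06 on A2, 10.71 and 10.72 on DAC8 and 10.63 and 10.51 on REF1. The DAC2 and REF2 arrays were above the iPS arrays, and these above the DAC8 and REF1 arrays. The difference was 0.89 ± 0.05 in DAC2 against REF1 and 0.97 ± 0.05 in REF2 against DAC8. Uqcrc1, a core protein of the complex, was higher by 0.83 ± 0.06 and 0.71 ± 0.06. Uqcrfs1, the Rieske iron-sulfur protein, differed by 0.15 ± 0.05 and 0.31 ± 0.05 and was not called. Uqcr10 and Uqcr11 are small subunits. Uqcr10 measured 11.32 ± 0.07 in REF2 and 11.96 ± 0.01 in DAC8 and fell by 0.64 ± 0.06 (adjusted p = 3.25e-06). Uqcr11 was higher in iPS than DAC2 by 0.68 ± 0.05 (adjusted p = 1.24e-06), with means of 11.37 ± 0.05 in A1 and 11.27 ± 0.02 in A2 against 10.64 ± 0.07 in DAC2.

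Complex IV, cytochrome c oxidase, held both Cox4i1, with the smallest range, and Cox7b, with the largest range of any widespread subunit. In DAC2 against REF1, 3 of 10 genes rose and 0 fell (median 0.22), and in REF2 against DAC8 2 rose and 0 fell (median 0.25). Over all genes 33.6% and 32.4% rose and 27.1% and 26.4% fell (medians 0.19 and 0.15). The share of complex IV that rose was thus below that of all genes in both. Cox7b, a small subunit encoded on chromosome X, measured 13.19 and 13.10 on DAC2, 12.61 and 12.56 on REF2, 12.38 and 12.37 on A1, 12.34 and 12.25 on A2, 11.84 and 11.83 on DAC8 and 11.87 and 11.78 on REF1. DAC2 was highest without overlap, and its difference from REF1 was 1.32 ± 0.06 (2.50-fold, adjusted p = 2.14e-08). Cox5b, a zinc-binding subunit, was higher by 0.68 ± 0.06 in DAC2 than REF1 and by 0.94 ± 0.06 in REF2 than DAC8. Cox5a, a further nuclear subunit, was higher by 0.93 ± 0.08 in DAC2 than REF1, from a probe set of low level (6.14 to 7.07 over the lines), since another probe set named a near-copy too and was left out. Cox6a1 differed by 0.01 and -0.15 in these contrasts and Cox8a by -0.09 and -0.39, and neither was called. Ndufa4, named for complex I but a subunit of complex IV, differed by 0.01 and 0.27.

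Complex V, ATP synthase, had small differences, and few of its genes passed the test. All 15 differences were above 0 in DAC2 against REF1 and 13 of 15 in REF2 against DAC8, with medians of 0.33 and 0.31, but 2 of 15 genes were called in each, where 33.6% and 32.4% of all genes were called higher. These were the same genes, Atp5f1a and Atp5pb. Differences above 0 were also common in pairs of like marker profile, at 12 of 15 in DAC8 against REF1 and 15 of 15 in A1 against A2. The medians there were 0.08 and 0.03. Atp5f1a, the alpha subunit of the catalytic head, measured 12.30 and 12.33 on DAC2, 12.13 and 12.05 on REF2, 12.28 and 12.23 on A1, 12.22 and 12.28 on A2, 11.27 and 11.29 on DAC8 and 11.46 and 11.38 on REF1. As for Sdhd, the DAC8 and REF1 arrays stood below the rest. The difference was 0.89 ± 0.06 in DAC2 against REF1 (1.86-fold, adjusted p = 2.1e-07) and 0.81 ± 0.06 in REF2 against DAC8 (adjusted p = 4.36e-07). Atp5pb, part of the stalk that holds the head still, differed by 0.61 ± 0.05 and 0.67 ± 0.05. Atp5f1b, the beta subunit that carries the catalytic sites, differed by 0.45 ± 0.05 and 0.52 ± 0.05, Atp5f1c, the rotating gamma subunit, by 0.47 ± 0.05 and 0.53 ± 0.05, and Atp5po, a further stalk subunit, by 0.54 ± 0.06 and 0.52 ± 0.06, all under 1.5-fold.

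The regulators moved with the subunits or apart from them. Cox7a2l, which links complexes III and IV into supercomplexes, was higher by 0.91 ± 0.05 in DAC2 than REF1, by 0.59 ± 0.05 in REF2 than DAC8 and by 0.73 ± 0.04 in iPS than REF1. The value for REF2 was 0.57 without DAC8 replicate 2 and then under the size limit. Atp5if1, the peptide that inhibits ATP hydrolysis by complex V, measured 11.13 and 11.06 on DAC2 and 11.15 and 11.13 on REF2, against 10.35 and 10.28 on A1, 10.22 and 10.31 on A2, 10.47 and 10.53 on DAC8 and 10.52 and 10.46 on REF1. The DAC2 and REF2 arrays were above all others. Its difference was 0.61 ± 0.06 in DAC2 against REF1 and 0.64 ± 0.06 in REF2 against DAC8, and it fell by 0.80 ± 0.05 in iPS against DAC2 (adjusted p = 2.79e-07). Its other 2 probe sets were below 5, the mean of its probe sets was not called in any of these contrasts (0.47, 0.23 and -0.56), and the call in DAC2 against REF1 was lost without REF1 replicate 2 (0.58) or DAC2 replicate 1 (0.57).

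The assembly factors of complex II did not move as a group. Sdhaf1, which helps insert the iron-sulfur clusters of Sdhb, measured 7.99 and 8.02 on DAC2 and 7.73 and 7.77 on REF2, against 9.44 and 9.38 on A1, 9.34 and 9.40 on A2, 9.22 and 9.35 on DAC8 and 9.32 and 9.30 on REF1. It was low on the arrays on which Sdha was highest. It fell by 1.30 ± 0.06 in DAC2 against REF1 (2.47-fold, adjusted p = 2.21e-08) and by 1.53 ± 0.06 in REF2 against DAC8 (2.89-fold, adjusted p = 7.68e-09). Sdhaf3, a partner of Sdhaf1 in that step, measured 8.06 and 8.35 on A1, 8.26 and 8.18 on A2, 7.98 and 7.97 on REF2, 7.28 and 7.35 on DAC2, 7.13 and 7.24 on DAC8 and 6.61 and 6.60 on REF1. It was higher by 0.71 ± 0.09 in DAC2 than REF1 and by 0.79 ± 0.09 in REF2 than DAC8, and by 1.61 ± 0.08 in iPS than REF1 (adjusted p = 3.9e-08). Sdhaf4 differed by 0.05 ± 0.06 in DAC2 against REF1 and by -0.37 ± 0.06 in REF2 against DAC8 and was not called there.

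Among the complex I assembly factors, Ndufaf4 and Ndufaf7 had the widest ranges. Ndufaf7, a methyltransferase that modifies a core subunit early in assembly, stood at 8.03 ± 0.05 for A1, 8.05 ± 0.01 for A2, 7.46 ± 0.00 for DAC2, 7.16 ± 0.07 for REF2, 6.53 ± 0.09 for DAC8 and 6.78 ± 0.04 for REF1. It was higher by 1.26 ± 0.05 in iPS than REF1 (adjusted p = 1.55e-08) and by 0.69 ± 0.06 in DAC2 than REF1. The REF2 minus DAC8 difference of 0.63 ± 0.06 was not kept without DAC8 replicate 1 (0.57) or REF2 replicate 2 (0.58), nor as a mean of its probe sets (0.33). Its other probe set differed by 0.54 in DAC2 against REF1 and 0.03 in REF2 against DAC8. Ndufaf4, which acts early in assembly, measured 10.21 and 10.33 on A1, 10.40 and 10.22 on A2, 9.94 and 9.98 on DAC2, 9.33 and 9.21 on REF2, 9.24 and 9.22 on DAC8 and 9.23 and 9.22 on REF1. The DAC2 arrays lay between the iPS arrays and the other 3 lines, and the difference was 1.06 ± 0.06 for iPS against REF1 and 0.73 ± 0.07 for DAC2 against REF1, but 0.04 ± 0.07 for REF2 against DAC8.

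The iPS lines were set against DAC2 and REF1, the ES and EF lines whose markers matched their labels. Against REF1, 16 members rose (18.6%, against 30.3% of all genes) and 0 fell (22.8% of all genes), and the median difference was 0.32 against 0.15 over all genes. The 5 with the largest difference were Sdhaf4 (1.71 ± 0.05), Sdhaf3, Ndufaf7, Sdhd and Ndufaf4, of which 4 are assembly factors. Subunits rose in every complex except III, with 4 of 34 called in complex I, 3 of 4 in II, 0 of 8 in III, 2 of 10 in IV and 1 of 15 in V, although the median difference was 0.46 in complex III. Cox6b1, which seals the dimer of complex IV, was higher by 0.65 ± 0.04. Cox5a was higher by 0.63 ± 0.07, and by 0.56 without REF1 replicate 2, when it was not called.

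Against DAC2, 4 members were higher in iPS (4.65%, against 25.5% of all genes) and 8 lower (9.30%, against 22.9%), and 74 of 86 lay within 1.5-fold of DAC2, as did 51.6% of all genes. The 4 higher members were Sdhaf4 (1.66 ± 0.05, 3.16-fold), Sdhaf1 (1.38 ± 0.05, 2.61-fold), Sdhaf3 (0.90 ± 0.08) and Uqcr11. Of the 4 Sdhaf genes on the array, 3 were thus higher in iPS than DAC2, while the 4 subunits of complex II they serve were all lower in iPS, by 0.09 to 0.42, and none of these was called. The lower members included Ndufs7, which fell by 0.84 ± 0.05 (adjusted p = 2.37e-07), Cox7b, which fell by 0.81 ± 0.05, and Atp5if1. The isoforms Cox7b2 and Cox6b2 and the pseudogene Cox6c-ps1 were also among the 8. Cox7b2 and Cox6c-ps1 had iPS means under 5, and each was tested only because of the groups in which it was higher. Among the 71 subunits of complexes I to V, 1 was higher (1.41%) and 3 were lower (4.23%). The neural markers stood at medians of 10.69 and 10.65 in A1 and A2 against 4.64 in DAC2, and their part in these differences was not tested. Comparisons with DAC2 and with REF1 share the iPS arrays, and those of iPS and DAC2 with REF1 share the REF1 arrays.

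The pairs of lines with like marker profiles differed little, in chain genes and over all genes. The median absolute difference in DAC2 against REF2 was 0.18 over members and 0.22 over all genes. It was 0.08 and 0.13 in DAC8 against REF1, and 0.04 and 0.08 in A1 against A2. In DAC2 against REF2, 2 members rose (2.33%, against 4.11% of all genes) and 1 fell (1.16%, against 8.42%). These were Cox7b2, Ndufaf4 (0.69 ± 0.07, adjusted p = 9.88e-05) and Sdhaf3, which fell by 0.66 ± 0.09 (adjusted p = 0.000391) and by 0.58, under the size limit, after a further quantile normalization. None of the 71 subunits of complexes I to V was called. In DAC8 against REF1, limma called 0 members in either direction, where 2.38% of all genes were higher and 2.12% lower. At an unadjusted p under 0.05, 20 members were higher and 4 lower, and the share of all genes at that level was not computed. Without DAC8 replicate 1, or without REF1 replicate 1, 2 members were called. The widest difference there was Sdhaf3 at 0.58. In A1 against A2, limma called 0 members, where 0.485% of all genes were higher and 0.285% lower. At an unadjusted p under 0.05, 4 members were higher and 0 lower, again without a share of all genes. Centred on each gene's mean, the members correlated across 86 genes at 0.95 between A1 and A2, 0.89 between DAC8 and REF1 and 0.76 between DAC2 and REF2, as means over pairs of arrays. Cox7b2 and Cox6b2, with the widest ranges, weigh heavily on these values too.

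The tested tissue-specific isoforms, Cox7b2 and Cox6b2, had wider ranges than any widespread subunit. Cox7b2, known as a form of the Cox7b subunit found in testis, measured 10.12 and 10.11 on the DAC2 arrays, 7.49 and 7.32 on REF2, 3.74 and 4.29 on A1, 4.01 and 3.74 on A2, 4.33 and 3.45 on DAC8 and 3.59 and 4.18 on REF1. It was above 5 in DAC2 and REF2 only, among the 6 lines. The difference was 6.23 in DAC2 against REF1 and 3.51 in REF2 against DAC8, given as a description, since the low side was under 5, where no level above background was shown, and the gene was tested only because of its high groups. It is 1 of the members counted as higher in both contrasts. Between DAC2 and REF2 it was 2.71 ± 0.30, or 6.55-fold (adjusted p = 0.000106).

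Cox6b2, the form of Cox6b1 known from testis, measured 8.31 and 8.28 on DAC2, 8.50 and 8.44 on REF2, 5.82 and 5.94 on A1, 5.30 and 5.62 on A2, 5.17 and 5.37 on REF1 and 4.77 and 4.68 on DAC8. The DAC2 and REF2 arrays lay above the rest, and the difference between these lines of -0.17 ± 0.11 was not called. The difference was 3.03 ± 0.11 in DAC2 against REF1 (8.17-fold, adjusted p = 4.03e-09), and iPS fell by 2.63 ± 0.09 against DAC2 (adjusted p = 4.5e-09). The widespread partners had other orders. Cox7b was highest in DAC2, and Cox6b1 was highest in iPS, at 12.15 ± 0.04 for A1 and 12.18 ± 0.03 for A2, with 11.95 ± 0.02 for DAC2, 11.82 ± 0.01 for REF2, 11.59 ± 0.02 for DAC8 and 11.51 ± 0.03 for REF1. Of 5 germ cell and testis markers on the array, Sycp3, a protein of the meiotic chromosome axis, had line means of 9.12 (DAC2) and 9.93 (REF2) and at most 3.39 elsewhere. The sperm genes Tnp1, Prm1 and Ldhc had line means of at most 3.22, and Odf1 stood at 5.00 and 5.03 for DAC2 and REF2 and at 3.23 to 4.13 elsewhere. The summed linear level of the 5 was 612 for DAC2 and 1029 for REF2, with 35.9 to 47.8 for the others, and its part in the isoform levels was not tested.

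The other isoforms stayed near or under 5. Cox7a1, known from heart and skeletal muscle, measured 4.94 and 4.97 on DAC2, 5.04 and 5.06 on REF2 and 4.24 to 4.61 on the other arrays, and was tested only with a filter on line means or with none. With either setting 23 members rose and 3 fell in REF2 against DAC8, of 87 and 91 tested. Cox4i2, the form of Cox4i1 known from lung and low oxygen, had line means of 3.43 to 3.89, Cox6a2, known from muscle, 3.70 to 4.06, and Cox8b, also from muscle, 2.68 to 2.96. Ndufa4l2, a paralog of Ndufa4 that hypoxia induces, had line means of 4.22 to 4.90. The median of 8 hypoxia response genes was between 7.62 and 8.68 in A1, A2, DAC2 and REF2, and was 5.88 in DAC8 and 6.48 in REF1. Of 8 muscle markers, with line medians of 3.36 to 3.68, Ckm, Mb and Myod1 were below 5 in all 6 lines, Tnni2 was above 5 in all, and Ryr1 was above 5 only in DAC2 and REF2 (6.58 and 6.03).

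**Figure D3:**
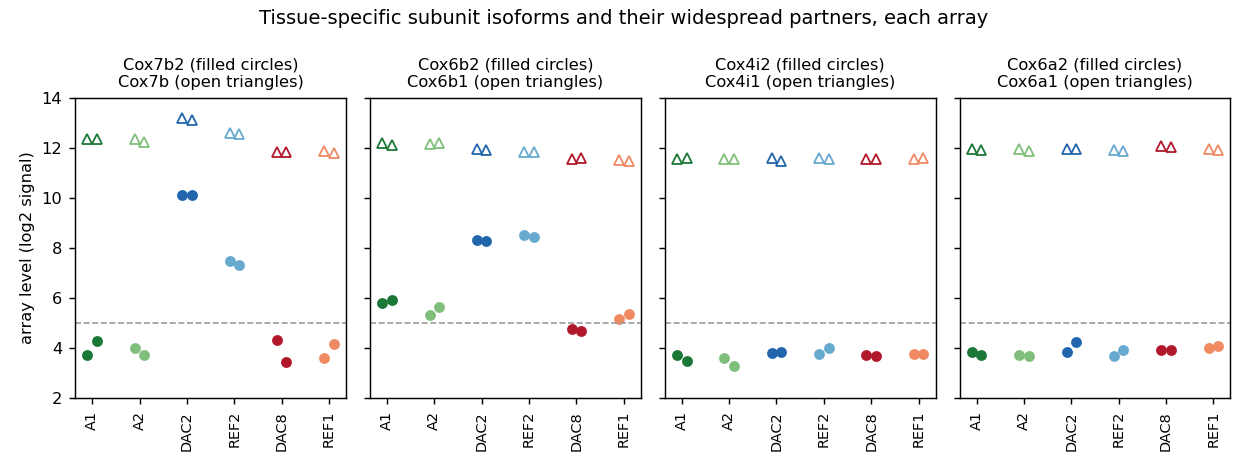
Levels on each of the 12 arrays (log2 signal, 2 points per line) for 4 tissue-specific isoforms (filled circles) and their widespread partners (open triangles), with a dashed line at 5; levels of different genes come from different probe sets and are not set against each other. Cox7b2 is above the dashed line in DAC2 and REF2 and Cox6b2 is highest there, while Cox4i2 and Cox6a2 stay under it on all 12 arrays.

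The promoters of isoforms and partners are shown because the pairs differed in where they were high. RefSeq's promoter table for the assembly GRCr8 holds 250 bases before and 50 after the start of each gene, and 82 of the 91 members matched it by symbol. The 150 bases just before the start are given 5′ to 3′ on the gene's strand, in lower case, with capitals for any match to GCATGCGC (NRF1), CCGGAAG (ETS factors such as GABPA) or AAGATGG (YY1) on either strand, 3 motifs known from promoters of respiratory genes. Cox7b2 lies at chr14:37046931-37047080 (plus strand), Cox7b at chrX:75148886-75149035 (plus), Cox6b2 at chr1:78122721-78122870 (plus) and Cox6b1 at chr1:95009853-95010002 (minus).
Cox7b2: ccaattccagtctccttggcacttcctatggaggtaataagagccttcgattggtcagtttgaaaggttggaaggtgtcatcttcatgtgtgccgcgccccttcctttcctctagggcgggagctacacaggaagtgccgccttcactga
Cox7b: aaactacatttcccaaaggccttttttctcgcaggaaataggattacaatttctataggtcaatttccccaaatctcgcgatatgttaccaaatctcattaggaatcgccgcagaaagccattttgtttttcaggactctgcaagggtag
Cox6b2: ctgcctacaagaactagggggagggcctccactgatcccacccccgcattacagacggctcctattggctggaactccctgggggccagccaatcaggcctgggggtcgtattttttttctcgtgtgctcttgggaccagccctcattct
Cox6b1: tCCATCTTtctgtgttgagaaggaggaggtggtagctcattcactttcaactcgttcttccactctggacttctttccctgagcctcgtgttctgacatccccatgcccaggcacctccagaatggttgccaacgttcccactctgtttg
These stretches hold no match except 1 to the YY1 motif at the 5′ end of Cox6b1. The promoters below are shown for genes whose subunits moved together or apart in complexes II and III, Sdhd at chr8:59850642-59850791 (minus), Uqcrc1 at chr8:118468073-118468222 (plus) and Sdhaf1 at chr1:94704612-94704761 (minus).
Sdhd: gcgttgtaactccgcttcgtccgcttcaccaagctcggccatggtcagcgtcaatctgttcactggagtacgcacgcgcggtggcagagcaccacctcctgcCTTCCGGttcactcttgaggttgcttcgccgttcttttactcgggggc
Uqcrc1: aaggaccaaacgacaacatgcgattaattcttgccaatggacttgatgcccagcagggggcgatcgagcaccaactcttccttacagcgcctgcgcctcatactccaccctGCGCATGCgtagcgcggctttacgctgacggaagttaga
Sdhaf1: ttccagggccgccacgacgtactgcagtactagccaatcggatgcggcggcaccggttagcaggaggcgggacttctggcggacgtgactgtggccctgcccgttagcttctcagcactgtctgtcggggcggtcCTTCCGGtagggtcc
Sdhd and Sdhaf1 both hold the ETS motif, and Uqcrc1 holds the NRF1 motif. Sdhd was higher and Sdhaf1 lower in DAC2 than REF1, and a relation between motifs and line differences was not tested.

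Over the full 300 bases, 9 of 82 member promoters held the NRF1 motif against 2.66% of 27457 promoters, 25 (30.5%) the ETS motif against 9.22%, and 20 (24.4%) the YY1 motif against 7.30%. At least 1 of them stood in 41 of 82 against 17.5%. Member promoters also held more CpG sites, with a median ratio of observed to expected CpG of 0.81 against 0.42 over all promoters, and 0.32 over the 6 tissue-specific isoforms matched. In the pairs shown the isoform had the higher ratio, at 0.61 for Cox7b2 and 0.43 for Cox7b, and 0.44 for Cox6b2 and 0.33 for Cox6b1. Cox4i1, the member with the smallest range, held 2 ETS matches and Sdhd, with a range of 1.23, also 2, and a relation between matches and ranges was not tested. A match is a string of letters and not a shown binding site, and these shares are a description.

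Cox7b, Ndufa1 and Ndufb11 are encoded on chromosome X, and this split was chosen after the values were seen. In DAC2 against REF2 they differed by 0.56 ± 0.06 (adjusted p = 9.05e-05), 0.33 ± 0.06 (adjusted p = 0.00127) and 0.42 ± 0.06 (adjusted p = 0.000475), each under 1.5-fold, while the median was 0.05 over the 83 other members. Over all 328 tested X-linked genes the median difference was 0.41, with 113 called higher and 15 lower, and over 10149 autosomal genes it was -0.01. Eif2s3y, a Y-linked gene, had a mean of 2.52 ± 0.14 for DAC2 and 10.70 ± 0.05 for REF2, and Xist, the RNA of the inactive X chromosome, 2.81 ± 0.22 and 4.95 ± 0.09. The Y-linked gene Uty had the other order, with 9.31 ± 0.05 for DAC2 and 8.26 ± 0.01 for REF2 and its highest line mean in DAC2. Xist stood at 10.26 ± 0.04 for DAC8 and 10.44 ± 0.06 for REF1, and Eif2s3y at 8.97 ± 0.07 and 8.91 ± 0.06. DAC2 against REF1 and REF2 against DAC8 thus differ in Xist too. There the 3 X-linked members had medians of 0.95 and 0.53, against 0.44 and 0.28 over the 83 others. Over all X-linked genes tested the medians were 0.40 and -0.03, and over autosomal genes 0.18 and 0.15. The part of sex chromosome content in these differences was not tested. Hccs, an X-linked gene whose product attaches heme to cytochrome c, was likewise higher in DAC2 than REF2, by 1.03 ± 0.05.

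The lists of the mitochondrial ribosome, of complex III and IV assembly and of regulators held larger shares of genes called higher than the subunits. This held in DAC2 against REF1 and in REF2 against DAC8. It also held in both for the coenzyme Q and carrier lists given below, and in REF2 against DAC8 for the citric acid cycle list. This is a description that was not tested, and the regulators count Esrrb, which is also among the pluripotency markers. Of 73 genes of the mitochondrial ribosome, which translates the subunits encoded in mitochondrial DNA, 44 (60.3%) rose and 0 fell in DAC2 against REF1. In REF2 against DAC8, 44 rose and 1 fell, and the median differences were 0.86 and 0.71. Of all genes, 33.6% and 32.4% rose and 27.1% and 26.4% fell in these contrasts. Mrpl42, a protein of the large subunit, led both contrasts, at 2.78 ± 0.07 and 2.58 ± 0.07. Of 20 assembly factors of complexes III and IV, 11 rose (55%) and 0 fell in DAC2 against REF1, and 12 rose (60%) and 1 fell (5%) in REF2 against DAC8. Coa7, a complex IV assembly factor, was higher by 1.96 ± 0.09 and 1.83 ± 0.09, and Uqcc1, a complex III assembly factor, by 1.86 ± 0.07 and 1.79 ± 0.07. Atpaf1, which helps assemble the head of complex V, was higher by 1.12 ± 0.06 and 0.71 ± 0.06. Hccs was higher by 2.29 ± 0.05 and 1.39 ± 0.05. The share called higher among the 71 subunits was 28.2% and 22.5% in the same contrasts.

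Of 17 transcriptional regulators of respiration, 8 rose and 0 fell in DAC2 against REF1, and 8 rose and 1 fell in REF2 against DAC8. The share called higher was 47.1% in both, against 33.6% and 32.4% of all genes, and 27.1% and 26.4% of all genes were called lower. Esrrb, an orphan nuclear receptor and a pluripotency marker above, was higher by 5.72 ± 0.11 and 5.82 ± 0.11, from line means under 5 in REF1 and DAC8. It is counted among the 8 in both contrasts. Since it was among the markers that gave these lines their profiles, its rise is not a separate result. Ppargc1b, a coactivator of mitochondrial genes, was higher by 3.54 ± 0.18 and 3.15 ± 0.18, also from means under 5. Tfam, which packages and transcribes mitochondrial DNA, had line means of 10.65 ± 0.01 for DAC2, 10.60 ± 0.03 for REF2, 10.03 ± 0.02 for A1, 9.98 ± 0.06 for A2, 8.66 ± 0.06 for DAC8 and 8.53 ± 0.09 for REF1. In iPS against DAC2, 16 of the 73 ribosomal genes, 6 of the 20 assembly factors and 5 of the 17 regulators fell, while 4, 1 and 0 rose. Of all genes, 22.9% fell and 25.5% rose there, so the 21.9% of ribosomal genes that fell was near the background. In iPS against REF1, 35, 8 and 7 rose and 1, 1 and 0 fell, where 30.3% of all genes rose and 22.8% fell.

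**Figure D4:**
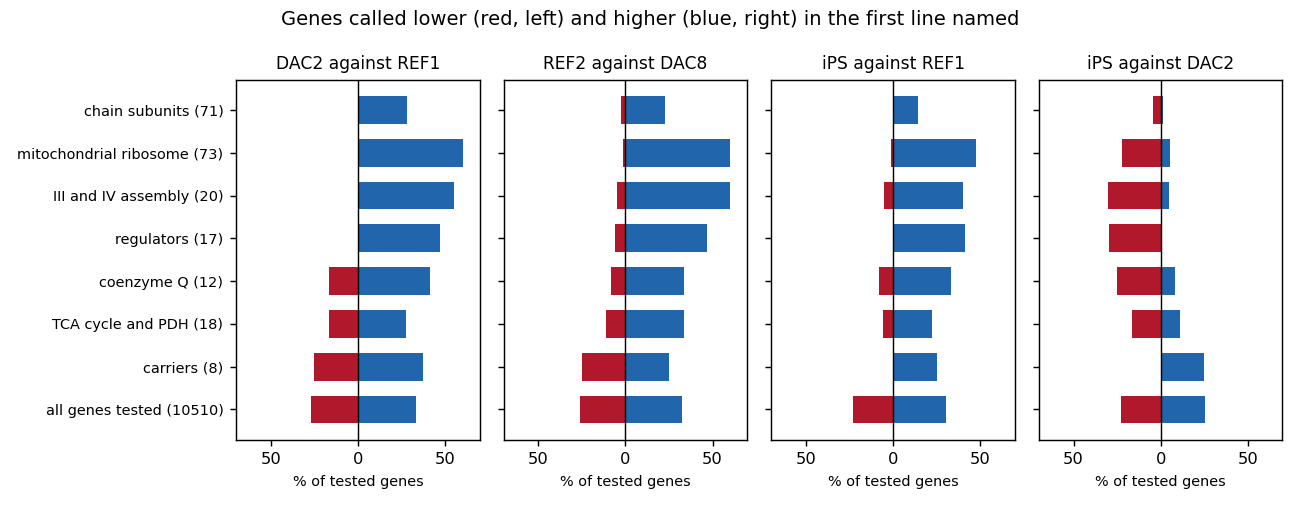
Bars give the percent of tested genes of each list called lower (red, to the left) and higher (blue, to the right) in the first line named, for 4 line contrasts, with the number of tested genes in brackets and all 10510 tested genes at the bottom. The mitochondrial ribosome bar reaches 60.3% in DAC2 against REF1 and in REF2 against DAC8, beyond the bars of the chain subunits (28.2% and 22.5%).

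The enzymes that feed the chain showed both directions. Of 18 genes of the citric acid cycle and pyruvate dehydrogenase, 5 rose (27.8%) and 3 fell (16.7%) in DAC2 against REF1, where 33.6% and 27.1% of all genes did. In REF2 against DAC8, 6 rose (33.3%) and 2 fell (11.1%), where 32.4% and 26.4% of all genes did, so the shares that rose were near or below the background. The 3 largest called differences in both contrasts were those of kinases that switch off pyruvate dehydrogenase. Pdk1 was higher by 2.80 ± 0.10 and 3.07 ± 0.10 and Pdk3 by 2.39 ± 0.07 in DAC2 than REF1, while Pdk2 fell by 1.94 ± 0.13 and 1.52 ± 0.13, to line means under 5. Of 12 genes of coenzyme Q synthesis, 5 rose (41.7%) and 2 fell (16.7%), and 4 rose (33.3%) and 1 fell (8.33%), with Coq3, a methyltransferase of the pathway, higher by 1.74 ± 0.07 and 1.29 ± 0.07.

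Of 8 carriers and channels, 3 rose (37.5%) and 2 fell in DAC2 against REF1, and 2 rose and 2 fell in REF2 against DAC8, where 33.6% and 27.1%, and 32.4% and 26.4%, of all genes rose and fell. Slc25a4, an exchanger of ADP and ATP known from heart and muscle, had its lowest line means in DAC2 (10.06 ± 0.05) and REF2 (11.30 ± 0.01), while the other 4 lines stood at 12.41 to 12.54. The difference between DAC2 and REF2 was -1.24 ± 0.06 (adjusted p = 8.28e-07), the only call among the carriers in that contrast. Vdac1, a channel of the outer membrane, was higher by 1.11 ± 0.08 and 1.05 ± 0.08. The subunits COX1 and COX2 encoded in mitochondrial DNA, added after the values were seen, stood at line means of 13.83 to 13.94 and 13.74 to 13.80, close to the highest value of 14.12 on any array, so that a difference there could be compressed.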

How the data were processed

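Gene expression in 12 samples was measured on single-colour Affymetrix rat arrays. The files held 31099 probe sets as log2 values, deposited by the authors after RMA and Partek 6.2, per the submitters' processing notes. RMA shrinks the differences of dim probe sets and of those close to saturation. The sources used here do not say if the 12 arrays went through 1 joint normalization.

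Symbols came from the platform's gene table: 20832 probe sets had 1 symbol, 436 several and 9831 were not listed. All 91 members were matched to RefSeq. Of these, 81 had 1 probe set and 10 several, and 7 probe sets that named a member with a near-copy were left out. A gene needed a mean of 5 in its highest cell type, which removed 3708. Values were fitted in limma 3.58.1 (R 4.3.3) over 10510 genes with Benjamini-Hochberg adjustment, labelled types with a random block for lines (consensus correlation 0.966), lines as a factor with 6 residual degrees of freedom. Errors beside differences are limma's SE. The number of arrays limits the precision.

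Named members were the isoforms with their partners, core subunits, the 4 widest ranges of each complex and of the assembly factors, and the 2 largest calls in each direction per line contrast; of pathway lists, up to 3 of the largest calls. The members and lists were chosen with earlier results of these data known. The fits were tested on simulated data. Alternatives were the block, normalization, filter, trend, probe set rule, size limit and leaving out arrays.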

Additional observations from a re-analysis of the deposited data

Results flagged for a closer look

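Among the 43 named members, each checked in the 4 arrays of each labelled type (129 groups), 2 had an array far from the other 3. With 4 replicates of a single population chance gives about 1 such group in 20, a rate that does not hold for these groups, since each joins 2 lines of 2 arrays. Cox4i2 measured 4.02 on 1 REF2 array and 3.76, 3.76 and 3.77 on the other EF arrays, a gap of 0.963 of the range. Cox6a2 measured 4.26 on 1 DAC2 array and 3.86, 3.92 and 3.92 on the other ES arrays, a gap of 0.843 of the range. Both genes were under 5 on all 12 arrays.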

How the results depend on the processing

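The labelled cell type comparisons depended on the block and on the lines. Without the line block, 15 members were called for iPS against ES and 18 for iPS against EF, where 28.6% and 29.9% of all genes were. Without the arrays labelled DAC8 and REF2, 58, 64 and 73 were called for iPS against ES, iPS against EF and ES against EF. Of all genes, 81.7%, 81.8% and 84.4% were called there. ES and EF were then 1 line each, so these counts do not allow for the spread between lines within ES or EF. Sdhaf4 passed in both iPS comparisons under all alternatives run, at an adjusted p of up to 0.0481 with line means. With adjusted p only, the line counts rose to 60 for iPS against DAC2, 65 for iPS against REF1, 73 for DAC2 against REF1, 70 for REF2 against DAC8, 41 for DAC2 against REF2 and 8 for DAC8 against REF1; at 2-fold or more, the first 5 fell to 4, 5, 6, 4 and 1. Leaving out an array moved DAC8 against REF1 from 0 to at most 2. The replicate block left all 10 counts as they were, for example 30 for DAC2 against REF1; deviations of same-numbered arrays correlated between lines at -0.08 to 0.24, so numbers were not taken as pairs. No named member changed direction in a contrast in which it was called, and those not called were not checked for this.

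Medians of the complexes moved with scaling. With equal array medians, iPS minus DAC2 was -0.16, -0.25, 0.059, -0.10 and -0.090 for complexes I to V, so complex V, at 0.0047 in the report's fit, changed sign, and after quantile normalization again it was -0.10 for II and 0.036 for V. For iPS minus REF1 these settings gave 0.43 and 0.50 for III and 0.37 and 0.47 for IV, and the mean of probe sets 0.42 for III and 0.30 for V. For DAC2 minus REF1, equal medians gave 0.49 for I, 0.21 for III and 0.39 for V. For REF2 minus DAC8, equal medians gave 0.29 for IV and 0.34 for V, quantile normalization 0.33 and 0.34, and the mean of probe sets 0.105 for III. For DAC2 minus REF2, complex V was 0.0020 after quantile normalization, -0.020 with equal medians and -0.012 with the mean of probe sets. Complex III was 0.042 for DAC8 minus REF1 and 0.023 for A1 minus A2 after quantile normalization, and complex V 0.016 for A1 minus A2 with the mean of probe sets. Leaving out an array gave -0.033 to 0.021 for V in iPS minus DAC2, 0.38 to 0.46 for I in DAC2 minus REF1, 0.019 to 0.073 for I in DAC2 minus REF2, and in A1 minus A2 -0.0045 to 0.045 for II, 0.033 to 0.057 for III and 0.0091 to 0.041 for V. The cause was not tested.

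With 2 arrays a line, and a line of each marker profile under both the ES and EF labels, chain genes cannot be compared between cell types beyond these lines. Levels under 5 were not shown to be above background.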
